A study of Mus musculus with 10 samples.

Results

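The outer cell layers of the mouse sweat gland were compared between its coil and its duct, with 2 arrays of gland myoepithelial cells set against 2 arrays of duct basal cells. These 4 arrays, picked by their titles and by no measured value, belong to a series of 10 arrays of cells from mouse paw pads. The donors were wild-type female CD1 mice with no treatment named, and their age is not given in the labels. The cells were sorted by flow cytometry, with sort markers that the labels do not give. The 6 remaining arrays, 2 each of gland luminal cells, duct suprabasal cells and palmoplantar epidermis, entered the same fit and gave it a shared estimate of the spread. Arrays of one population are named as biological replicates in the labels, but the number of animals behind each is not given. The p-values therefore cover only the spread from array to array, part of which may be technical.

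Sweat is made in a coiled gland and reaches the skin surface through a straight duct. In the coil, myoepithelial cells form the outer layer, wrap around the secretory luminal cells and squeeze sweat into the duct when nerves release acetylcholine. They are epithelial cells with basal keratins that also carry the contractile apparatus of smooth muscle, in which calcium and calmodulin switch on a kinase of the myosin light chain. The basal cells of the duct are keratinocytes with the same basal keratins. They lie on the same kind of basement membrane and are the layer in which the duct's cells divide.

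Signals are given in the arbitrary units of the array, and a log2 difference is that of log2(signal + 12), positive where myoepithelial cells were brighter. The added 12 makes the difference of dim genes smaller than their ratio. A gene passed if its adjusted p from limma, corrected over the 9304 genes tested, was under 0.05. Of these genes 2253 passed (24.2%), with 1115 higher (12%) and 1138 lower (12.2%) in myoepithelial cells, and the median log2 difference of all genes was 0.02. Differences of at least 2-fold were found for 1710 passing genes (18.4%). Among those, 69 were at least 16-fold higher and 90 at least 16-fold lower. The count of passing genes was 1404 without myoepithelial array 1, 1173 without myoepithelial array 2 and 1153 without duct basal array 2. Both arrays of one population were brighter than both arrays of the other for 5940 genes (63.8%), so that such a separation is common here. The median signal was between 92.7 and 120.1 on the 8 sweat gland and duct arrays, and only 2 arrays a population limit the precision of every estimate.

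The labels were checked against the defining transcripts of both populations. Krt5, a basal keratin, had signals of 10007 and 12727 on the myoepithelial arrays and 24116 and 26013 on the duct basal arrays. For Trp63, the master transcription factor of stratified epithelia, they were 3807 and 4738 against 3631 and 3004. Both genes were bright in both populations and neither passed (log2 differences -1.15, adjusted p = 0.138, and 0.36, adjusted p = 0.263). Acta2, the smooth muscle actin that marks myoepithelium, had signals of 36397 and 58196 in myoepithelial and 2594 and 1212 in duct basal cells.

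Arrays that share a label were not equal for every gene group. Markers of the secretory luminal cells, the neighbours of myoepithelial cells in the coil, were brighter on myoepithelial array 1 than on array 2 for 16 of 19 genes tested. For 13 of these the gap was over 2-fold, and the median log2 gap was 2.21, against 0.03 for all genes. Krt18, a keratin of simple epithelia, had signals of 3744 and 444 on myoepithelial arrays 1 and 2, and Aqp5, a water channel of gland secretory cells, had 3693 and 786. Genes of sodium, chloride and water transport leaned the same way, brighter on array 1 for 23 of 28 (median 1.57). On the duct basal arrays the transcripts of the immediate early response, which rises within minutes of cell stress and dissociation, were brighter on array 2 for 24 of 28 genes. Their median log2 gap of array 1 minus array 2 was -0.81, against 0.08 for all genes, and the signals of Jun, a subunit of the AP-1 transcription factor, were 1953 and 12682. The part of these gaps in the results that follow was not tested beyond leaving out each array. Between the populations, 2 luminal genes passed as higher and 2 as lower of 19. With 1 array left out these counts ran from 0 to 2 and from 0 to 5, the 5 without myoepithelial array 1 and the 0 in either direction without duct basal array 2. Of 28 early response genes 1 passed as higher and 2 as lower, with 0 to 4 and 2 to 6 when 1 array was left out, the 6 without duct basal array 1 and the 4 without either duct suprabasal array.

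**Figure D1:**
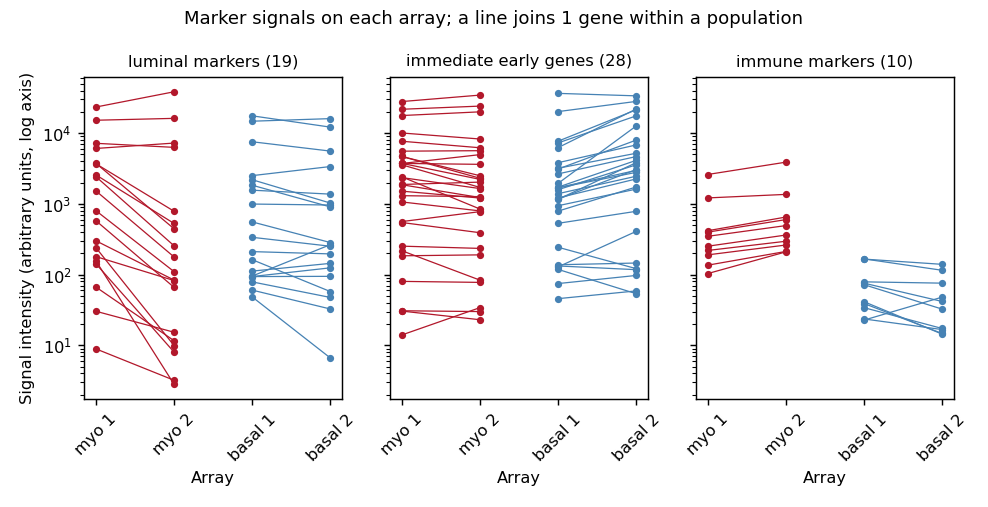
Signals of luminal markers (19 genes), immediate early genes (28 genes) and immune markers (10 genes) on myoepithelial arrays 1 and 2 (red) and duct basal arrays 1 and 2 (blue), in arbitrary units on a log axis, with a line joining the signals of 1 gene within a population. The luminal lines fall from myoepithelial array 1 to array 2 for 16 of 19 genes, the early gene lines climb towards duct basal array 2 for 24 of 28, and the immune points lie higher on the myoepithelial arrays.

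All gene lists and their members were chosen with earlier results of these data known. Their counts, medians and ranking therefore only describe these arrays. Of the lists examined, that of the smooth muscle contractile apparatus had the largest median difference. Of 20 contractile genes listed 17 were tested, and 17 were higher in myoepithelial cells, with a median log2 difference of 4.29. Myh11, the myosin heavy chain of smooth muscle, had signals of 18782 and 19074 on the myoepithelial arrays and 132 and 49.7 on the duct basal arrays. The myoepithelial arrays were alike and bright, the duct basal arrays were both dim, and the groups did not overlap (7.65, SE 0.46, adjusted p = 1.22e-05). Myl9, the regulatory light chain that is phosphorylated to start contraction, had 23818 and 36088 against 310.1 and 180.2 (log2 difference 6.88, SE 0.40, adjusted p = 1.12e-05). Mylk, the kinase that phosphorylates it, had 23414 and 33498 against 598 and 239.5 (6.16, SE 0.39, adjusted p = 1.68e-05). Every myoepithelial signal of these genes stood far above every duct basal signal.

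Thin filament proteins were higher as well. Cnn1, calponin, had signals of 12770.2 and 20511 in myoepithelial and 52.3 and 45.4 in duct basal cells, with no overlap (log2 difference 8.06, SE 0.35, adjusted p = 3.82e-06). Tagln, transgelin, an actin-binding protein of smooth muscle, had 17756 and 29091 against 321 and 111, and Lmod1, leiomodin, which nucleates actin filaments, had 1177 and 1254 against 4.9 and 1.9. Their log2 differences were 6.81 (SE 0.57) and 6.32 (SE 0.47), and for Lmod1 the duct basal signals lay below the added 12, where the array barely separates a signal from none. The smallest differences in the list were those of Smtn, smoothelin (1.79, SE 0.32, adjusted p = 0.00389), and of Myl6, a light chain found in most cells (2.00, SE 0.49, adjusted p = 0.0182). Myl6 had 1433 and 555 against 308 and 148, so that its arrays differed within each population by more than those of Smtn. With 1 array left out at a time, 16 or 17 of the 17 passed, and Myl6 was the one lost, without myoepithelial array 1 (1.32, adjusted p = 0.118) or duct basal array 2 (0.132).

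**Figure D2:**
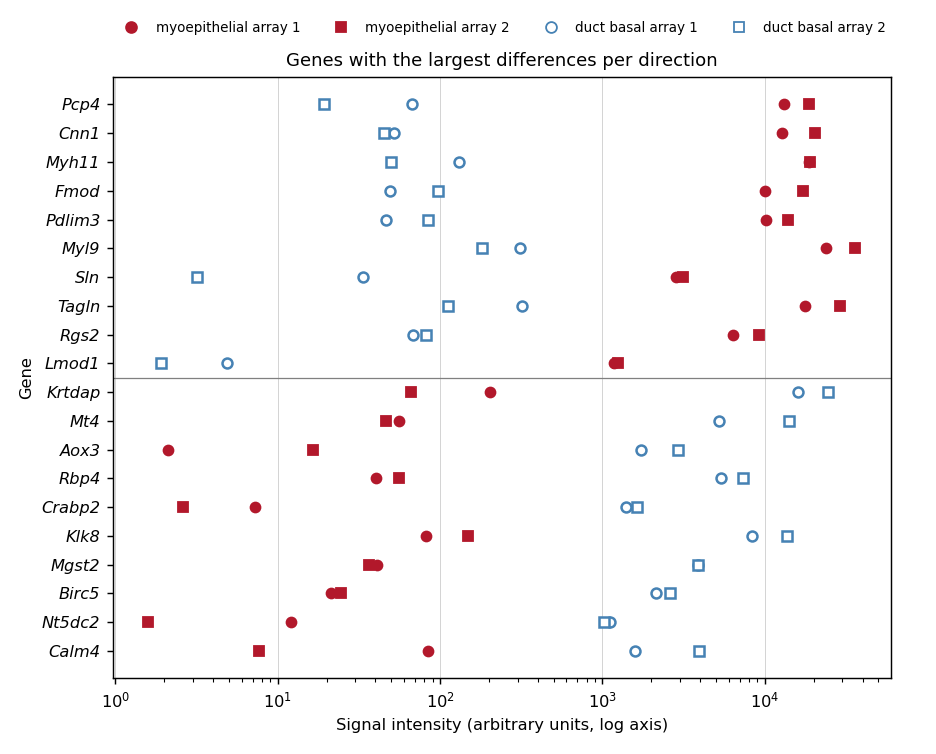
Signals of the 10 genes with the largest difference per direction on each myoepithelial array (filled) and duct basal array (open), in arbitrary units on a log axis. In every row the filled and the open symbols are apart, with Pcp4 at 13141 and 18757 against 66.8 and 19.2 at the top and Krtdap at 204.3 and 66.5 against 15983 and 24544 leading the lower block.

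Genes of calcium handling and of the signalling around contraction were led by Pcp4, a small peptide that binds calmodulin. Its signals were 13141 and 18757 on the myoepithelial arrays and 66.8 and 19.2 on the duct basal arrays. Both myoepithelial arrays exceeded both duct basal arrays and the log2 difference was the largest in the fit of all 10 arrays (8.31, SE 0.52, adjusted p = 1.57e-05). Without duct basal array 2 it was 7.64, and Cnn1 with 7.98 stood above it. Rgs2, which turns off the G protein behind acetylcholine and other contractile receptors, had 6382 and 9264 against 68 and 81.9 (6.47, SE 0.31, adjusted p = 4.92e-06). Sln, sarcolipin, an inhibitor of the calcium pump of muscle, had 2852 and 3121 against 33.7 and 3.2 (log2 difference 6.83, SE 0.52, adjusted p = 4.18e-05, and 4.31 with the mean of its 2 probe sets). The pump itself, Atp2a2, was bright in both populations, at 16805 and 19155 against 6867 and 5298 (1.57, SE 0.26, adjusted p = 0.00292, and 3.42 with the mean of its probe sets). All 4 genes were brighter on both myoepithelial arrays.

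In the whole list of contraction receptors and calcium signalling, 18 of 43 genes were tested, 9 were higher and 1 lower, and the median was 1.63. The count of higher genes was 5 without myoepithelial array 1, 5 without array 2 and 4 with the filter at the 60th percentile, which tests fewer dim genes. Chrm3, the muscarinic receptor through which acetylcholine acts on sweat glands, was dim in both populations, at 53.8 and 69.2 against 17.8 and 1.7. It passed (1.86, SE 0.51, adjusted p = 0.0271), but not without myoepithelial array 1 (0.0819), myoepithelial array 2 (0.138) or duct basal array 2 (0.158), nor with 1 added to the signals (3.12, adjusted p = 0.0513), and the difference was 0.91 with 50 added. The 1 gene of the list that was lower was P2ry1, a receptor for extracellular nucleotides, at 2.6 and 1.8 on the myoepithelial and 225 and 186 on the duct basal arrays. Both myoepithelial signals were near the lowest the array gives, and the difference of -3.93 (SE 0.58, adjusted p = 0.00141) became -6.02 with 1 and -2.29 with 50 added to the signals.

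Srf is the transcription factor that, with cofactors released when actin polymerizes, drives the genes of the contractile apparatus. Its own signals were 1578 and 1759.5 in myoepithelial and 306 and 376 in duct basal cells, with no overlap (2.26, SE 0.27, adjusted p = 0.000441). Mrtfa, the cofactor that actin holds in the cytoplasm, had 470.3 and 667 against 178 and 157 (1.67, SE 0.32, adjusted p = 0.00557), and its call was lost without myoepithelial array 2 (0.0544). Pdlim3, which ties filaments to the actin crosslinker actinin, had 10166 and 13979.8 against 46.2 and 84.1 (7.32, SE 0.30, adjusted p = 3.82e-06). In the list of actin cytoskeleton genes and Srf cofactors, 14 of 20 were tested, 10 were higher and 1 was lower (2 after quantile normalization), with a median of 2.34. The lower gene was Csrp2, a LIM-domain protein whose relative Csrp1 went the other way, with log2 differences of -2.42 (SE 0.32) and 3.07 (SE 0.23). Csrp2 had 533 and 305 on the myoepithelial and 1837 and 2665 on the duct basal arrays, and Csrp1 had 13431 and 20671 and 1919.8 and 2017.

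The start regions of the contractile genes were read from the RefSeq promoter table of build GRCm38.p6, which gives 250 bases before to 50 after each annotated start. The sequence sought was the CArG box, the site that Srf binds, on both strands. Of the 14 tested contractile genes with a window, 3 held a match (21.4%), and of 12 actin cytoskeleton and Srf cofactor genes 4 did (33.3%), against 1.68% of the 7515 tested genes with a window. The stretches around those 3 matches are printed with the match in capitals. The Myl9 stretch lies at chr2:156775273-156775342 on the plus strand, with the match 161 bases before the start. The Cnn2 stretch lies at chr10:79988514-79988583 on the plus strand, with the match 56 bases before the start. The Myl6 stretch lies at chr10:128493020-128493089 on the minus strand, with the match 50 bases before the start.
Myl9: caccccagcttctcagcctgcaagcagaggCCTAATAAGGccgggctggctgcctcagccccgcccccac
Cnn2: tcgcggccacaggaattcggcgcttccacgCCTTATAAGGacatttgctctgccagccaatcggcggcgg
Myl6: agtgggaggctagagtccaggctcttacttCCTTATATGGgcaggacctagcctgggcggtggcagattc
A match describes the letters of this window and is no measured binding, and no match says only that the letters are not in it. Cnn2, a calponin found outside muscle, had signals of 4123 and 5153 in myoepithelial and 491 and 631 in duct basal cells (3.02, SE 0.48, adjusted p = 0.00205), a smaller difference than that of Cnn1, whose window held no match.

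Contraction has to be passed on to the basement membrane through integrins. Of 25 integrin and focal adhesion genes 15 were tested, 9 were higher and 1 was lower in myoepithelial cells, with a median of 1.12. The count of higher genes was 4 without duct basal array 2. Fermt2, kindlin-2, which activates integrins, led the list at 4968 and 5450 against 276 and 169.6 (4.51, SE 0.26, adjusted p = 1.12e-05), followed by Lims2, an adaptor of the same adhesions (3.44, SE 0.47, adjusted p = 0.000973). Itgb1, the beta chain shared by most integrins of the basal surface, had 2344 and 1669 in myoepithelial and 593 and 548 in duct basal cells (1.77, SE 0.26, adjusted p = 0.00157). Itgb4, the beta chain of hemidesmosomes, went the other way, with 304 and 221 against 1184 and 1560.5 (-2.34, SE 0.24, adjusted p = 0.000169). Neither gene's arrays overlapped between the populations. Their common partner Itga6 did not pass, at 5881 and 6558 against 6143 and 4619 (0.22, SE 0.23, adjusted p = 0.538).

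Basement membrane genes were higher for 10 of 27 tested and lower for 2, with a median of 1.23 and 32 genes listed. The lower count was 1 without myoepithelial array 1 or duct basal array 1. Col4a1 and Col4a2, the chains of the common collagen IV network, had 10554 and 12601 and 5552 and 6075 on the myoepithelial arrays. On the duct basal arrays they had 290.5 and 228 and 142 and 123. The chains moved by nearly the same amount, 5.42 (SE 0.65) and 5.34 (SE 0.67), with adjusted p = 0.000464 and 0.000597. Egfl6, a matrix protein of basal epithelium, had 469 and 454 against 0.7 and 29 (4.37, SE 0.55, adjusted p = 0.000624). Postn, periostin, which crosslinks collagen, had 19850 and 28037 against 3292 and 1497 (3.40, SE 0.54, adjusted p = 0.00218). Tnc, tenascin-C, a matrix protein of growing and healing epithelium, was lower in myoepithelial cells, at 56.6 and 61.4 against 377 and 413 (-2.52, SE 0.42, adjusted p = 0.00287). Perlecan (Hspg2, 0.93, SE 0.52, adjusted p = 0.233) and agrin (Agrn, 0.37, SE 0.26, adjusted p = 0.355), proteoglycans of every basement membrane, did not pass.

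The basal keratinocyte list was divided. Of 17 genes tested 4 were higher and 4 lower, with a median of -0.54. Of these counts the former was 2 without myoepithelial array 2 or duct basal array 1, and the latter was 7 without either duct suprabasal array. Lama3, a chain of laminin-332, had 7609 and 8441 in myoepithelial and 1374 and 1455 in duct basal cells (2.49, SE 0.51, adjusted p = 0.00754). Bnc1, basonuclin, a zinc finger protein of proliferating basal keratinocytes, had 16.6 and 7.5 against 386 and 487 (-4.24, SE 0.34, adjusted p = 5.19e-05). Sfn, the 14-3-3 protein of keratinocytes, was lower as well (-2.24, SE 0.33, adjusted p = 0.00142). Each of these genes was separated between the populations on all 4 arrays. Krt14, the partner of Krt5 in basal keratin filaments, had 8896 and 9394 against 35992 and 33738 (-1.93, SE 0.45, adjusted p = 0.0146), and this call was lost when any 1 of the 4 arrays was left out, with adjusted p between 0.0642 and 0.0721. The hemidesmosomal collagen Col17a1 (-0.70, SE 0.71, adjusted p = 0.53) and the linker Dst (0.06, SE 0.33, adjusted p = 0.917) did not pass.

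Mitosis genes had the lowest median of the gene lists. Of 44 mitosis genes tested (48 listed), 43 were lower in myoepithelial cells, with a median log2 difference of -3.98, and 40 to 43 were lower when 1 array was left out. Birc5, survivin, a subunit of the complex that steers chromosome attachment, had signals of 21.4 and 24.6 on the myoepithelial arrays and 2124 and 2614 on the duct basal arrays. The former were at the level of dim genes, the latter were bright, and they did not overlap (-6.08, SE 0.34, adjusted p = 1.02e-05). On the epidermis arrays it had 307 and 385, also below the duct basal arrays. Cdk1, the kinase that drives entry into mitosis, had 41 and 29.2 against 2515 and 2143 (-5.64, SE 0.25, adjusted p = 3.82e-06), and its partner cyclin Ccnb2 had 25.5 and 15.7 against 991 and 1010.3 (-4.97, SE 0.34, adjusted p = 2.03e-05). In bulk RNA of sorted cells, fewer dividing cells and less of these transcripts per cell cannot be told apart.

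Cdc20 and Ube2c, which label mitotic proteins for destruction, had log2 differences of -4.78 (SE 0.40, adjusted p = 6.15e-05) and -5.45 (SE 0.47, adjusted p = 6.85e-05). Cdc20 kept a signal of 357 and 187 on the myoepithelial arrays against 7506 and 7299 on the duct basal arrays, and Ube2c had 38.7 and 55.9 against 2166 and 3008. Anln, which builds the ring that splits the cell, had 55.9 and 15.7 against 2008 and 1534 (-5.35, SE 0.40, adjusted p = 3.9e-05). All 3 were dimmer on both myoepithelial arrays. Top2a, the topoisomerase that untangles chromosomes, had 79.3 and 36.3 against 2806 and 2456 (-5.31, SE 0.31, adjusted p = 1.12e-05), and -2.60 with the mean of its probe sets. The member that did not pass was Ncapd2, a condensin subunit, at 377 and 88.9 against 459 and 384 (-1.12, SE 0.66, adjusted p = 0.254), whose myoepithelial arrays were far apart.

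DNA replication genes were lower too, with a median nearer to 0. Of 32 genes tested (36 listed) 27 were lower and 0 higher, with a median of -1.73 (0 higher also at an unadjusted p under 0.05), and 19 to 29 were lower with 1 array left out. Rrm2, the regulated subunit of the enzyme that makes deoxynucleotides, had signals of 90.2 and 105 in myoepithelial and 2542 and 1881 in duct basal cells (-4.33, SE 0.27, adjusted p = 1.55e-05). Uhrf1, which brings the maintenance DNA methyltransferase to new DNA, had 54.9 and 60.9 against 1042 and 1165 (-4.0, SE 0.26, adjusted p = 1.68e-05). The groups did not overlap for either gene. Among the 6 subunits of the replicative helicase, differences ran from -3.23 for Mcm6 (SE 0.27) through -2.85 for Mcm5, -2.80 for Mcm3 and -2.49 for Mcm7 to -0.94 for Mcm2 (SE 0.24), whose call was lost without myoepithelial array 1 (0.0626), myoepithelial array 2 (0.115) or duct basal array 1 (0.112) and whose difference was -1.63 with the mean of its probe sets. The remaining subunit, Mcm4, did not pass (-1.04, SE 0.38, adjusted p = 0.0775). Pcna, the clamp that holds the polymerase on DNA, stayed well above the dim range in both populations, at 2801 and 2988 against 10762 and 11031 (-1.91, SE 0.18, adjusted p = 0.000101).

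Genes that control the cycle did not go one way, and neither did all genes tested, with 12% higher and 12.2% lower. Of 32 regulators tested 5 were higher and 10 lower, with a median of -0.31. The count of higher genes was 3 without myoepithelial array 1, 3 without myoepithelial array 2 and 3 without duct basal array 2. Ccnd1, cyclin D1, which carries growth signals into the cycle, had 1010.1 and 448 in myoepithelial and 5454 and 6566 in duct basal cells (-3.13, SE 0.32, adjusted p = 0.000189). Myc, a driver of growth, had 184 and 190.2 against 1169 and 3059 (-3.26, SE 0.39, adjusted p = 0.000441), with duct basal array 2 brighter than array 1. Cdkn1c, the inhibitor p57 found in cells that have left the cycle, was higher in myoepithelial cells, at 1044 and 1105 against 90.5 and 131 (3.16, SE 0.60, adjusted p = 0.00532), and so was the transcription factor Foxo3 (1.42, SE 0.26, adjusted p = 0.0042). Other inhibitors differed in sign. Cdkn1a, p21, was lower (-1.64, SE 0.28, adjusted p = 0.00303), Cdkn2c, p18, was lower (-2.48, SE 0.32, adjusted p = 0.000742), and Cdkn1b, p27, did not pass (-0.27, SE 0.52, adjusted p = 0.758). Ribosome biogenesis genes, which follow growth, were lower for 19 of 27 tested and higher for 0 (0 also at an unadjusted p under 0.05), with a median of -1.04, and the count was 12 without myoepithelial array 2 and 12 without duct basal array 2. Nhp2, a subunit of the particles that modify ribosomal RNA, led them, at 1012 and 1120.5 against 4734 and 5775 (-2.28, SE 0.20, adjusted p = 6.98e-05).

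The start regions of the mitosis genes were searched on both strands for TTTGAA, the core of the element through which genes are silenced until late in the cell cycle, and for CCAAT, the box bound by NF-Y. The motifs share no position in the stretches printed here. Of the 37 tested mitosis genes with a window, 28 held TTTGAA (75.7%), 28 held CCAAT (75.7%) and 25 held both (67.6%). Among the 7515 tested genes with a window the shares were 14.1%, 42.5% and 5.59%, and among all 27025 genes with a window 20.2%, 41.1% and 7.97%. For the 28 DNA replication genes with a window TTTGAA was found in 4 (14.3%) and CCAAT in 19 (67.9%). The window of Birc5 held neither. Printed here are the 120 bases before the start of 4 mitosis genes. They have the largest differences among those that hold both motifs in these bases. Genes without both there, such as Birc5, were passed over, so the 4 do not stand for the list. Both motifs are in capitals on whichever strand they lie (TTCAAA and ATTGG are their reverse complements). The stretches lie at chr10:69352913-69353032 on the minus strand for Cdk1, chr2:164769809-164769928 on the plus strand for Ube2c, chr11:99024190-99024309 on the minus strand for Top2a and chr4:118437344-118437463 on the minus strand for Cdc20.
Cdk1: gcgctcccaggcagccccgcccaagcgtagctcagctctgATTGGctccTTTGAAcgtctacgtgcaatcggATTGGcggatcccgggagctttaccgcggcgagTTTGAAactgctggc
Ube2c: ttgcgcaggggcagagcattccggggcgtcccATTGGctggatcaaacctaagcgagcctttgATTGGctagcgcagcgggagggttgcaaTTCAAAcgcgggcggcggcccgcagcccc
Top2a: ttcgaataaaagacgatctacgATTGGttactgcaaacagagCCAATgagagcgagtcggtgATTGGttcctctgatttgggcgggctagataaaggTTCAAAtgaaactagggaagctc
Cdc20: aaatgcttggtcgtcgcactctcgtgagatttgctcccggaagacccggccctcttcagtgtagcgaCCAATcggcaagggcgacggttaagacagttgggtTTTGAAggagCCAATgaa
In these stretches TTTGAA or its complement began 15 to 29 bases before the start of each gene, with a further copy 71 bases before that of Cdk1. Binding was not measured.

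**Figure D3:**
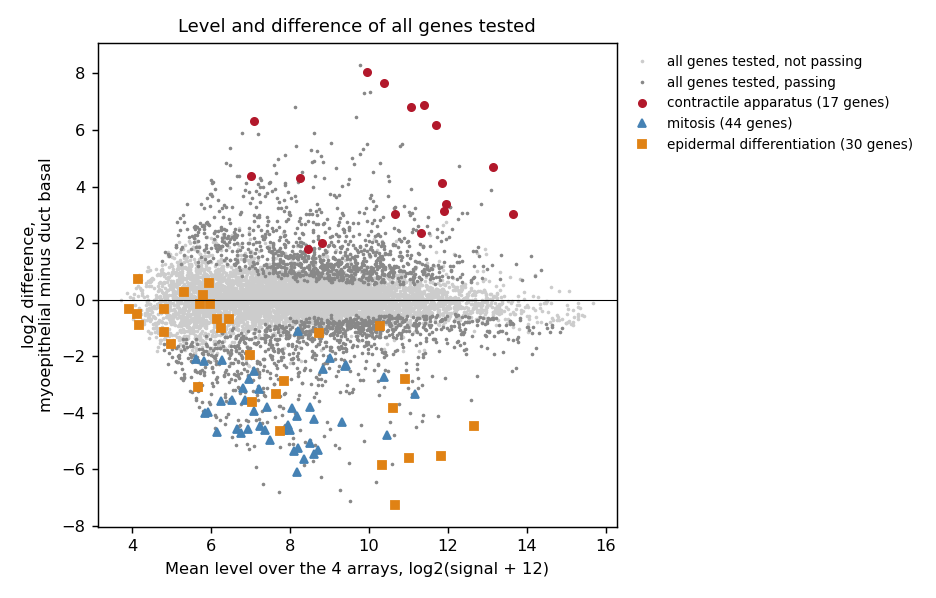
Log2 difference (myoepithelial minus duct basal) against mean level over the 4 arrays, as log2(signal + 12), for the 9304 genes tested, dark where they passed, with contractile (red circles, 17), mitosis (blue triangles, 44) and epidermal differentiation genes (orange squares, 30). The red circles all lie above the zero line, the blue triangles all lie below it, and the orange squares reach down to -7.25 among bright genes and gather near the line among dim ones.

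Duct basal cells also held transcripts of epidermal differentiation. Of 41 genes listed 30 were tested, 14 were lower in myoepithelial cells and 0 were higher (0 also at an unadjusted p under 0.05), with a median of -1.15. Krtdap, a secreted peptide of differentiating keratinocytes, had signals of 204 and 66.5 on the myoepithelial arrays and 15983 and 24544 on the duct basal arrays. Its difference was the largest on the duct side in the fit of all 10 arrays, and no array overlapped (-7.25, SE 0.66, adjusted p = 9.61e-05). Aox3 stood before it with 1 added to the signals or without myoepithelial array 2, and Mt4 without duct basal array 1. In the epidermis, where such genes are at home, it had 35491 and 32834. Dmkn, another secreted protein of the epidermis, had 199 and 125 against 8742 and 10962 (-5.85, SE 0.27, adjusted p = 3.9e-06). Calml3, a calmodulin-like protein of keratinocytes, had 386 and 209 against 12118 and 17296 (-5.61, SE 0.55, adjusted p = 0.000137), and Ly6d, a surface protein of stratified epithelia, had 593 and 462 against 20630 and 29362 (-5.52, SE 0.48, adjusted p = 6.93e-05).

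The keratins of the spinous layer passed, whereas loricrin and filaggrin did not. Krt1 had 325 and 496 in myoepithelial and 4147 and 8452 in duct basal cells (-3.84, SE 0.35, adjusted p = 9.77e-05). Its partner Krt10 had 755 and 692 against 2499 and 10255 (-2.79, SE 0.52, adjusted p = 0.00467), with duct basal array 2 far brighter than array 1, and -1.77 without array 2. Lor, loricrin, and Flg, filaggrin, are late proteins of the granular layer. On the duct basal arrays they had 81.7 and 119 and 23.2 and 15.5, and on the epidermis arrays 1125 and 1009 and 154 and 99. In duct basal cells both genes were dim, and neither passed (-0.68, adjusted p = 0.204, and -0.32, adjusted p = 0.714). Evpl did pass as lower in myoepithelial cells (-3.63, and -2.38 without myoepithelial array 2). Krt2 passed as lower too, with differences from -5.89 to -3.36 under the alternatives. Its call was lost without myoepithelial array 1 or duct basal array 2. Whether the spinous transcripts came from the basal cells or from differentiated cells among them was not tested. Keratins of stressed or growing epidermis were lower in myoepithelial cells, with Krt6a at 366 and 283 against 5351 and 8285 (-4.32, SE 0.61, adjusted p = 0.00115) and Krt16 at 13.2 and 8.4 against 302 and 759.8 (-4.44, SE 0.42, adjusted p = 0.000107). Their relative Krt17 did not pass (-0.52, SE 0.37, adjusted p = 0.356).

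The remaining genes with the largest differences on the duct side have various roles. Rbp4, the carrier of retinol, had signals of 40.3 and 55.5 on the myoepithelial arrays and 5365 and 7334 on the duct basal arrays (-6.72, SE 0.58, adjusted p = 6.85e-05). Crabp2, which brings retinoic acid to its nuclear receptor, had 7.2 and 2.6 against 1404 and 1643 (-6.51, SE 0.27, adjusted p = 3.82e-06). Aox3, an aldehyde oxidase, had 2.1 and 16.6 against 1720.1 and 2925 (-6.81, SE 0.60, adjusted p = 7.42e-05). For each, both duct basal arrays were bright and both myoepithelial arrays were dim. The epidermis arrays had 4588 and 4998 for Crabp2, 205 and 222 for Rbp4 and 10.9 and 3 for Aox3, so that Aox3 and Rbp4 were brighter on the duct basal arrays than on the epidermis arrays while Crabp2 was dimmer. Mt4, a metallothionein of stratified epithelia, had 55.6 and 46.4 against 5222 and 14187 (-7.10, SE 0.67, adjusted p = 0.000117), Klk8, a protease of the epidermis, 82.4 and 149 against 8318 and 13786 (-6.44, SE 0.72, adjusted p = 0.000313), and Aqp3, the water and glycerol channel of basal keratinocytes, 105 and 69.5 against 4200 and 6953 (-5.79, SE 0.42, adjusted p = 3.32e-05). Mgst2, a glutathione transferase of the membrane, had 40.6 and 36.4 against 3865 and 3867 (-6.26, SE 0.31, adjusted p = 5.62e-06). The 10 largest are completed by Nt5dc2 (-5.90, SE 0.38, adjusted p = 1.68e-05) and Calm4, another calmodulin-like gene of the epidermis (-5.85, SE 0.91, adjusted p = 0.00188). On the other side, Fmod, fibromodulin, a matrix proteoglycan, had 10094 and 17068 in myoepithelial and 49.1 and 97.3 in duct basal cells (7.33, SE 1.07, adjusted p = 0.0014).

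Junction genes passed in both directions, as did all genes tested, with 12% higher and 12.2% lower. Of 26 desmosome and junction genes tested 2 were higher and 7 lower, with a median of -0.29, and 4 were higher without either duct suprabasal array or on the 4 arrays compared alone. Cdh2, N-cadherin, had 582 and 574 in myoepithelial and 54.3 and 20.6 in duct basal cells (3.67, SE 0.41, adjusted p = 0.00029), while Cdh1, E-cadherin, had 5085 and 4683 against 7248 and 4829 and did not pass (-0.28, SE 0.37, adjusted p = 0.636). Pkp4, a plakophilin relative, was higher (2.48, SE 0.26, adjusted p = 0.000232), and Pkp1, the plakophilin of the upper epidermis, was lower, at 951 and 867 against 7448 and 7255 (-3.00, SE 0.27, adjusted p = 7.84e-05). The core desmosomal proteins Dsp (-0.29, SE 0.20, adjusted p = 0.34) and Jup (-0.07, SE 0.25, adjusted p = 0.874) did not pass. Gja1, connexin 43, the main gap junction protein of skin, had 743 and 892 against 15105 and 13672 (-4.12, SE 0.41, adjusted p = 0.000144), although 1 of its 6 probe sets had the opposite sign. Both arrays of each population lay on the same side for Cdh2, Pkp4, Pkp1 and Gja1.

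**Figure D4:**
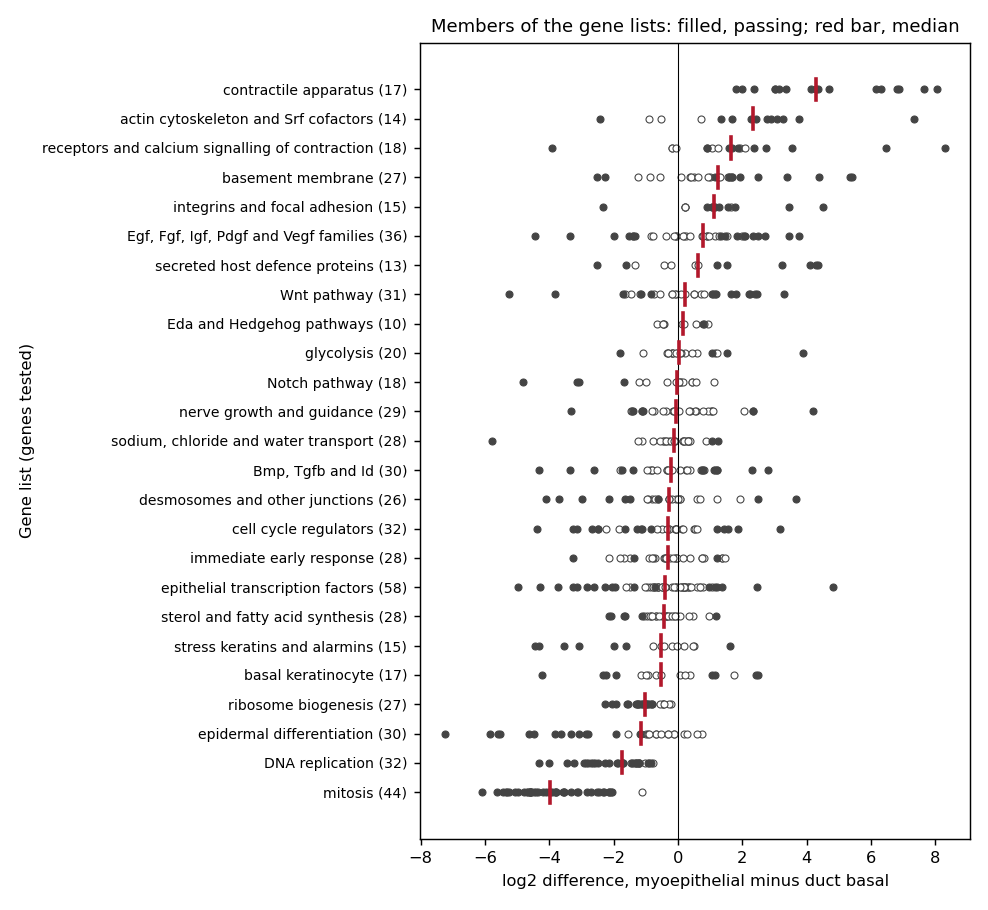
Log2 differences (myoepithelial minus duct basal) of the tested members of 25 gene lists, with passing members filled, others open and the median of each list as a red bar. The lists run from the contractile apparatus with a median of 4.29 to mitosis with a median of -3.98.

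Among signalling pathways the Notch and Wnt lists held large single differences. Notch receptors are cut upon contact with a ligand on the next cell and switch on Hes and Nrarp genes. Of 18 Notch genes tested 4 were lower in myoepithelial cells and 0 higher (6 and 1 at an unadjusted p under 0.05), with a median of -0.02, and 1 was higher without either duct suprabasal array, and also with 50 added to the signals, with the stricter filter, with the mean of all probe sets or on the 4 arrays compared alone. The receptor Notch1 had 314 and 194 against 2114 and 2488 (-3.15, SE 0.27, adjusted p = 6.65e-05), the ligand Jag1 had 417 and 247 against 973 and 1149 (-1.68, SE 0.27, adjusted p = 0.0022), and the target Nrarp had 70.3 and 81.1 against 1752 and 3469 (-4.82, SE 0.32, adjusted p = 1.88e-05). The target Hes1 had 516 and 382 against 1869 and 8012 (-3.09, SE 0.55, adjusted p = 0.00379), which became -2.04 without duct basal array 2. All 4 were dimmer on both myoepithelial arrays, whereas the receptor Notch2 (0.08, SE 0.23, adjusted p = 0.844) and the target Hey1 (-0.06, SE 0.48, adjusted p = 0.945) did not pass.

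Wnt proteins signal through Frizzled receptors, and R-spondins with their Lgr receptors strengthen the signal. Of 31 Wnt genes tested (49 listed) 10 were higher and 5 lower, with a median of 0.22. The count of higher genes was 6 without myoepithelial array 1, 5 without myoepithelial array 2 and 5 without duct basal array 2, and that of lower genes was 3, 2 and 3 without these arrays and 3 without duct basal array 1. Rspo1, an R-spondin, had 3.6 and 13.6 in myoepithelial and 770.3 and 744 in duct basal cells (-5.27, SE 0.38, adjusted p = 3.18e-05), and Notum, an enzyme that inactivates Wnt proteins, had 35.6 and 62.8 against 797 and 872 (-3.83, SE 0.38, adjusted p = 0.000141). Receptors and ligands passed in both directions. Fzd7 had 7653 and 10566 against 1937 and 1866 (2.23, SE 0.21, adjusted p = 0.000126) and Lgr5 had 1234 and 997 against 214 and 249 (2.21, SE 0.33, adjusted p = 0.00159). The receptors Fzd2 (1.81) and Fzd4 (1.10) were higher and Fzd6 (-0.84) and Lgr6 (-1.16) lower, and of the ligands Wnt6 was higher (1.66, SE 0.37, adjusted p = 0.0115) and Wnt10a lower (-1.71, SE 0.43, adjusted p = 0.0202). Each of these 6 calls was lost without myoepithelial array 2, those of Fzd2, Fzd4 and Fzd6 also with the mean of their probe sets (0.49 for Fzd4), that of Lgr6 with no filter and that of Wnt10a with 1 added to the signals or without any 1 of the 4 arrays. The others were lost without further arrays, Fzd4 and Lgr6 without myoepithelial array 1 or duct basal array 2, and Fzd6 and Wnt6 without duct basal array 1. Sfrp1, a secreted inhibitor, was also higher in myoepithelial cells, at 11930 and 14910.5 against 1492 and 1241 (3.28, SE 0.46, adjusted p = 0.00112). The feedback target Axin2 did not pass, at 113 and 51 against 214 and 169 (-1.19, SE 0.51, adjusted p = 0.127).

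In the Bmp and Tgfb list 7 genes were higher and 5 lower of 30 tested, with a median of -0.21. The count of higher genes was 3, 4 and 2 without myoepithelial array 1, myoepithelial array 2 and duct basal array 2, and that of lower genes was 3, 3 and 2, and with the mean of all probe sets 3 were higher. The ligand Bmp2 had 34.5 and 19 against 707 and 792 (-4.32, SE 0.36, adjusted p = 5.78e-05), and Inhbb, a subunit of activin and inhibin, had 448 and 301 against 3518 and 4359.9 (-3.37, SE 0.23, adjusted p = 2.03e-05, and -1.86 with the mean of its probe sets). Follistatin, Fst, which binds activin, was higher in myoepithelial cells, at 3858 and 2753 against 412 and 498 (2.81, SE 0.47, adjusted p = 0.00274), and so was the activin receptor Acvr2a (2.31, SE 0.32, adjusted p = 0.00107). For these 4 genes the populations did not overlap. In the Eda and Hedgehog pathways, which shape sweat glands in the embryo, 1 gene of 10 tested passed, the Hedgehog inhibitor Sufu (0.76, SE 0.21, adjusted p = 0.0269). It did not without myoepithelial array 1, myoepithelial array 2 or duct basal array 2, with the mean of its probe sets (0.50, adjusted p = 0.182) or on the 4 arrays compared alone (0.0592), and 3 genes were higher without the variance trend.

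Several growth factor genes were brighter in myoepithelial cells. Of 36 genes of the Egf, Fgf, Igf, Pdgf and Vegf families tested 10 were higher and 7 lower, with a median of 0.76. Without myoepithelial array 2 the counts were 6 and 3, without duct basal array 2 they were 5 and 4, and with the mean of all probe sets 4 were lower. Kitl, the ligand that keeps melanocytes and mast cells alive, had 10968 and 16801 in myoepithelial and 1759 and 863 in duct basal cells (3.45, SE 0.38, adjusted p = 0.000283). Fgf7, a growth factor for keratinocytes, had 682 and 553 against 51.9 and 21.2 (3.77, SE 0.60, adjusted p = 0.00217), and Pdgfa had 3322 and 4102 against 1108 and 680.5 (2.07, SE 0.25, adjusted p = 0.000448). Fgfbp1, which releases Fgf proteins from the matrix, went the other way, at 226 and 143 against 3697 and 4676 (-4.44, SE 0.28, adjusted p = 1.68e-05). These 4 genes were separated on all arrays. Nrtn, neurturin, a factor for autonomic neurons, had 5032 and 7618 against 332 and 319 (4.20, SE 0.28, adjusted p = 2.02e-05), the largest difference in the list of nerve growth and guidance, where 3 of 29 tested were higher and 4 lower, the former 5 without either duct suprabasal array or with 50 added to the signals. Among all genes tested the shares were 12% higher and 12.2% lower. The lower genes of the nerve list included Efnb2, an ephrin, at 82.1 and 45.2 against 935 and 559 (-3.33, SE 0.36, adjusted p = 0.00025, and -1.65 with the mean of its probe sets).

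Transcription factors passed in both directions. Of 58 epithelial factors tested (78 listed) 6 were higher, 12 lower and 40 did not pass, with a median of -0.42. Over all genes tested, 12% were higher and 12.2% lower. The count of higher genes was 2 without myoepithelial array 1, myoepithelial array 2 or duct basal array 2, 3 without either luminal array, 3 after quantile normalization and 2 with the mean of all probe sets. Sox10, a factor of neural crest and glandular epithelium, had 4039 and 4292 against 179.6 and 104 (4.81, SE 0.51, adjusted p = 0.000228), and 2.32 with the mean of its 3 probe sets, 1 of which had the opposite sign. Its relatives Sox7 and Sox15 were lower, with 49.5 and 55.8 and 48.8 and 44.1 on the myoepithelial arrays and 2049 and 1970.2 and 776 and 756 on the duct basal arrays. Their log2 differences were -4.97 (SE 0.34, adjusted p = 2.03e-05) and -3.74 (SE 0.41, adjusted p = 0.000253). Bcl11b, a zinc finger protein of skin and of T cells (-4.28, SE 0.46, adjusted p = 0.00025), Dlx5, a homeobox gene (-3.26, SE 0.42, adjusted p = 0.000683), and Klf5, a factor of growing epithelium (-2.83, SE 0.51, adjusted p = 0.00419), were lower too. Sox9 did not pass, at 1350.3 and 744 against 1208 and 2272 (-0.72, SE 0.52, adjusted p = 0.357).

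The metabolism and transport lists are set beside the 24.2% of all genes tested that passed (12% higher and 12.2% lower). In glycolysis 3 of 20 genes tested were higher and 1 was lower, with a median of 0.02 (0 lower without duct basal array 2 and 2 without either duct suprabasal array), and 18 of the 20 were brighter on myoepithelial array 1 than on array 2. Pdk4, the kinase that closes the entry of pyruvate into the citric acid cycle, had 509 and 369 against 17.9 and 18.8 (3.88, SE 0.36, adjusted p = 0.000103). Its arrays were alike within each population and far apart between them. In sterol and fatty acid synthesis 1 of 28 was higher and 5 were lower (1 and 9 at an unadjusted p under 0.05), with a median of -0.43. The 1 higher call was lost without myoepithelial array 1, myoepithelial array 2 or duct basal array 2, and the count of lower genes was 1 without myoepithelial array 2 and 2 without duct basal array 2, and 3 without the variance trend. Salt and water transport, the work of coil and duct, gave 2 higher and 1 lower of 28, and the 2 higher calls rested on few arrays, with 0 left without myoepithelial array 2 or duct basal array 2 and 1 without myoepithelial array 1, duct basal array 1 or either epidermis array. Without myoepithelial array 1, on which these genes were brighter, 5 were lower. Aqp5 did not pass, at 3693 and 786 against 1563 and 1374 (0.22, SE 0.60, adjusted p = 0.833).

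Markers of other cells were read on the same arrays. Immune markers were higher in myoepithelial cells for 8 of 10 tested and lower for 0 (0 also at an unadjusted p under 0.05), with a median of 2.86, for 4 without myoepithelial array 2 or duct basal array 2, and for 5 with 1 added to the signals. Their summed signal was 5883 and 8338 on the myoepithelial arrays and 720.2 and 515.8 on the duct basal arrays. Csf1r, the receptor of macrophages, had 1215 and 1363 against 167 and 115 (3.11, SE 0.52, adjusted p = 0.00274, and 2.04 with the mean of its probe sets), and Tyrobp, an adaptor of myeloid cells, had 417 and 651 against 34.1 and 17.3 (3.86, SE 0.65, adjusted p = 0.00293). Lysozyme, Lyz2, stands both in this list and in that of secreted host defence proteins, at 2605 and 3889 against 166 and 139.7 (4.28, SE 0.76, adjusted p = 0.00394), beside its neighbour gene Lyz1 (4.36, SE 0.64, adjusted p = 0.0014), with which it can share probe signal. In the host defence list 6 of 13 genes tested were higher and 2 lower, the latter 0 without duct basal array 2 and 1 without any other of the 4 arrays or either epidermis array. Lcn2, an iron-binding protein of epithelia and neutrophils, had 707 and 496 against 4 and 66.9 (4.09, SE 0.66, adjusted p = 0.00226). The part of immune cells in these differences was not tested.

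Fibroblast markers were higher for 0 and lower for 3 of 10 tested, and lower for 0 without myoepithelial array 2, 1 without duct basal array 1 and 1 without duct basal array 2. Dcn, decorin, was bright in both populations, at 11955 and 15302 against 22039 and 18361 (-0.57, SE 0.76, adjusted p = 0.637). Of 9 endothelial markers tested 0 passed in limma, and 1 had an unadjusted p under 0.05 (lower in myoepithelial cells). They had a summed signal of 496.2 and 395.4 on the myoepithelial and 1523 and 694.1 on the duct basal arrays. Markers of pericytes and vascular smooth muscle were read too, since those cells share the contractile genes. The part of such cells in the contractile differences was not tested. Rgs5 had 527 and 586 in myoepithelial and 501 and 242 in duct basal cells (0.65, SE 0.58, adjusted p = 0.46), and Pdgfrb had 94.4 and 87 against 109 and 57.4 (0.16, SE 0.87, adjusted p = 0.92), and neither passed. Mcam, an adhesion molecule of vessel walls, did, at 3701 and 1776 against 74.3 and 55.1 (5.08, SE 0.43, adjusted p = 6.71e-05), as 1 of the 5 pericyte genes tested of 10 listed. Among melanocyte markers Mitf was higher (3.66, SE 0.31, adjusted p = 6e-05) while Dct, Tyrp1 and Pmel did not pass, with 189 and 112, 53.1 and 2.8 and 27.6 and 65.9 on the myoepithelial arrays. Pmp22, a myelin protein that also occurs in epithelia, was higher (3.01, SE 0.26, adjusted p = 6.71e-05) as 1 of 3 Schwann cell genes tested.

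The gland and duct comparison of the outer layers was set beside that of the inner layers, to see which differences were larger in one of them. The same fit gave the difference between luminal and duct suprabasal cells, and the myoepithelial minus duct basal difference minus this one was tested for every gene. Of 9304 genes 1467 passed in limma (15.8%), with 921 positive (9.9%) and 546 negative (5.87%). The duct suprabasal arrays also carried markers of other cells, more so array 2. Median signals there were 456.5 and 4347.2 for fibroblast and 499.1 and 2994.9 for endothelial markers. Their median inner differences were -3.20 and -4.25, and their median gaps 2.61 and 3.37. The part of such cells in the positive gaps was not tested. The count was 651 without myoepithelial array 2, 615 without duct basal array 2, 749 without luminal array 1 and 689 without luminal array 2. All 17 contractile genes tested were positive, with a median of 5.31, and 16 or 17 were with 1 array left out. Myh11 differed by 7.65 in the outer and -0.51 in the inner layer, a gap of 8.16 (SE 0.65, adjusted p = 0.000297). Its signals were 23.3 and 45.7 on the luminal and 75.2 and 35.3 on the duct suprabasal arrays, dim on all 4.

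Mitosis genes had a negative median gland minus duct difference in both layers. Of 44 tested 30 passed as negative and 0 as positive, with a median of -2.60 for the gap, against medians of -3.98 in the outer and -1.48 in the inner layer. The count of negative genes fell when some single arrays were left out. Cdk1 differed by -5.64 in the outer and -1.45 in the inner layer, a gap of -4.20 (adjusted p = 0.000325), with signals of 62.3 and 66 in luminal and 173 and 220 in duct suprabasal cells. For DNA replication 18 of 32 were negative and 0 positive, and 10 were without myoepithelial array 2, 11 without duct basal array 2 and 11 without luminal array 2. Epidermal differentiation genes did not separate the layers in the same way. Of 30 tested 1 was positive and 0 negative, with a median of 0.15 for the gap. Krtdap differed by -7.25 in the outer and -6.17 in the inner layer (gap -1.08, SE 0.94, adjusted p = 0.466), with signals of 83.3 and 429 in luminal and 12326 and 17546 in duct suprabasal cells. Without myoepithelial array 1 or without luminal array 1 the negative count was 2, and without myoepithelial array 2 or luminal array 1 the positive count was 0. A gap that does not pass does not show that the layers were alike.

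**Figure D5:**
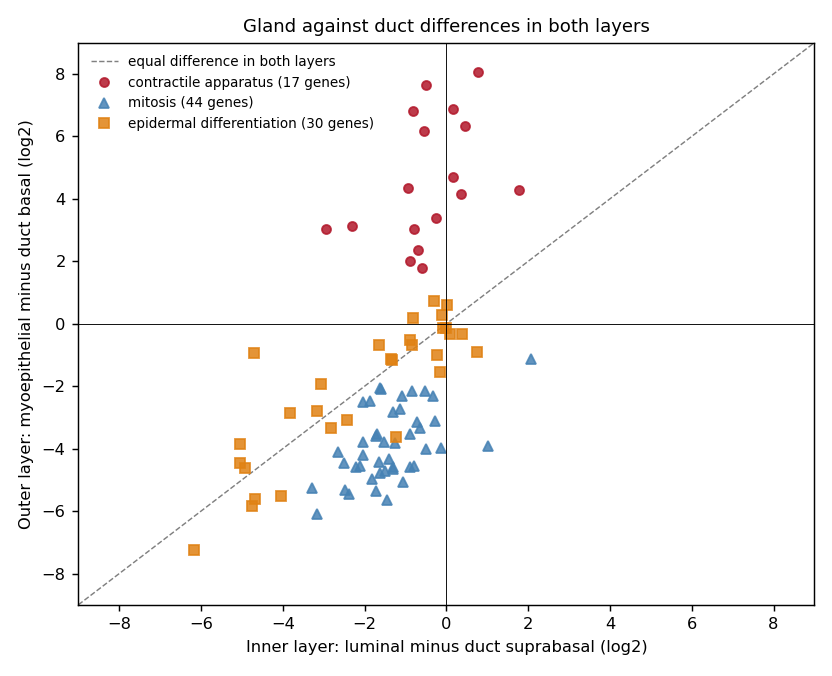
Gland minus duct difference (log2) in the outer layer, myoepithelial minus duct basal, against that in the inner layer, luminal minus duct suprabasal, for contractile (red circles, 17), mitosis (blue triangles, 44) and epidermal differentiation genes (orange squares, 30), with a dashed line where both are equal. The contractile genes lie far above the line, the mitosis genes below it for 44 of 44, and the epidermal genes along it down to Krtdap at -6.17 and -7.25.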

How the data were processed

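Total RNA of sorted cells was labelled with biotin and hybridised to 10 mouse expression arrays, 2 for each of 5 populations. The deposited values are signal intensity on a linear scale from MAS5, per the submitters' processing notes, which give no version, and run from 0.1 to 72213. Trimmed by 2% at either end, each array has a mean of 500. Of 22690 probe sets 64 controls were left out, 20380 had 1 gene symbol in the platform table, 691 had several and 1555 were not listed there. No column of values lacked a sample (0).

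Signals were analysed as log2(signal + 12), without added normalization; about 20% of all values lie below 12. The probe set brightest on average stood for each of 12393 genes, and the 9304 above the 40th percentile of an array on at least 2 of 10 arrays were tested. All 10 arrays were fitted with limma 3.58.1 in R 4.3.3 (lmFit, eBayes with a mean-variance trend, 5 residual degrees of freedom), with Benjamini-Hochberg adjustment over the 9304 genes; genes below 0.05 passed. SE is the standard error of a log2 difference.

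A gene could be named if it passed, differed 2-fold or more, showed no overlap between the arrays of both populations, and in the brighter population had a mean above that of the median gene (359.5). In either direction the 10 with the largest differences were taken, then at most 4 from any list. Further list members appear where they describe a list. The 36 lists hold 904 different genes, 803 on the array and 682 tested, and some genes stand in more than 1 list. They comprise 25 of programs and 11 of other cells. Of the latter, 0 of 5 Merkel cell, 1 of 6 red blood cell and 2 of 6 adipocyte markers were tested and 0 of these passed, and 1 of 4 skeletal muscle markers was higher (Acta1, 1.72, SE 0.47, adjusted p = 0.027), a call lost when any 1 of the 4 arrays compared was left out and with a pseudocount of 1, with a difference of 0.97 with a pseudocount of 50. The members and lists were chosen with earlier results of these data known. Each result was recomputed with a pseudocount of 1 or 50, after quantile normalization, with no filter or the 60th percentile, with the mean of all probe sets, without the variance trend, with the array number as a block, on fewer arrays, and with each array left out in turn. Promoter windows came from RefSeq (GRCm38.p6). The arrays have no depth to count, and their number limits the precision.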

Additional observations from a re-analysis of the deposited data

Results flagged for a closer look

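For 7 genes with large differences between myoepithelial and duct basal cells, the gland minus duct difference of the outer layer differed from that of the inner layer, luminal minus duct suprabasal, by the limma test of the difference itself. Each value here is the outer minus the inner log2 difference, with no explanation weighed. All but Birc5 were picked by the size of the outer difference. Birc5 was a marker set for this comparison, and its outer difference stood at rank 8 on the duct side. The outer difference is part of the value tested, so the choice favours passing, for Birc5 as well. Pcp4 differed by 7.61 (adjusted p = 0.000658), from 8.31 in the outer and 0.70 in the inner layer. Cnn1 differed by 7.29 (adjusted p = 0.000169), from 8.06 and 0.77. Myh11 differed by 8.16 (adjusted p = 0.000297), from 7.65 and -0.51. Fmod differed by 10.35 (SE 1.52, adjusted p = 0.00328), from 7.33 and -3.02, and its inner layer value rests on duct suprabasal arrays with signals of 734 and 9166, far apart. On the duct side, Aox3 differed by -3.94 (adjusted p = 0.0155), from -6.81 and -2.87, and lost the call without duct basal array 2 (0.0715) or luminal array 2 (0.0612). Rbp4 differed by -3.49 (adjusted p = 0.0219), from -6.72 and -3.23, and lost it without myoepithelial array 1 (0.0594), myoepithelial array 2 (0.0571), duct basal array 2 (0.086) or luminal array 2 (0.0807). Birc5 differed by -2.91 (adjusted p = 0.00563), from -6.08 and -3.17. Krtdap and Mt4, with the largest differences on the duct side, did not pass this test (-1.08, adjusted p = 0.466, and -0.97, adjusted p = 0.524). These 2 comparisons share no array.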

How the results depend on the processing

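The count of genes passing between myoepithelial and duct basal cells was 2253, and it lay between 1948 (mean of all probe sets of a gene) and 2836 (without the duct suprabasal arrays) under the 10 alternatives other than leaving out a single array. With 1 array left out it ran from 1153 to 2819, and the count for the outer minus the inner layer, 1467, ran from 615 to 2014. The array number as a replicate block gave 2678 and 1937. The labels describe no pairing by number. Deviations from the population means of same-numbered arrays correlated by 0.1166 to 0.3597 among the 4 gland and duct populations, 0.1166 for the 2 compared, and by 0.0274 to 0.0864 with epidermis. With 2 arrays a population, whether the numbers pair the arrays is not settled. Of 203 passing genes named by the rule or examined to describe a list, 194 were tested under all 20 alternatives and 138 of these passed in each, while 9 were not tested under every alternative, and 0 genes reversed their sign while called. Leaving out 1 of the 4 arrays compared ended the call of 32 to 50 of these genes. Quantile normalization moved the median difference of all genes from 0.021 to -0.014. Limits are the 2 arrays a population, the unknown number of animals and sort markers, and array signals that cannot rank dim genes, whose differences depend on the added constant. The spread is taken as equal in all 5 populations, although the duct suprabasal arrays differed most, with 1864 genes over 2-fold apart against 732 in myoepithelial and 817 in duct basal cells.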

Other observations

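Of 15 stress keratin and alarmin genes tested 6 were lower in myoepithelial cells, Krt6a and Krt16 among them, and 1 was higher, the former 3 without myoepithelial array 2 and 3 without duct basal array 2. The latter, Sprr2d, was dim on all 4 arrays, at 31.6 and 50.1 against 2.3 and 8.7, and its call was lost without any 1 of them and under 7 other alternatives, such as the 4 arrays compared alone (0.0696). Its difference was 2.85 with 1 and 0.71 with 50 added to the signals. Serpinb2, a protease inhibitor of stressed and differentiating keratinocytes, had signals of 10.2 and 43.5 on the myoepithelial arrays and 241 and 342 on the duct basal arrays (-3.09, SE 0.87, adjusted p = 0.0313), a call lost without any 1 of these 4 arrays (0.0547 to 0.166), without either epidermis array, and with a pseudocount of 1. Stfa3, a cysteine protease inhibitor, had 0.9 and 4.2 against 80 and 299.8 (-3.55, SE 0.51, adjusted p = 0.00131), which became -5.63 with 1 and -2.02 with 50 added to the signals, since both myoepithelial signals lay below the added 12. S100a8 and S100a9, the alarmins of inflamed skin, did not pass and were dim, with 25.2 and 31.4 and 13.2 and 14.1 on the myoepithelial arrays and 36.5 and 31.5 and 2.3 and 11.2 on the duct basal arrays.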
